A study of Mus musculus with 12 samples.

Results

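Peg10, Sgce, Peg3, Zim1, Plagl1, Igf2, Igf2r, Grb10, Mest and Ndn are imprinted coding genes that lie outside the Dlk1-Dio3 domain, where lncMGC, the host transcript of the miR-379 megacluster, is located. They were chosen by gene symbol, with earlier results of these data known, and all 10 were found among the 25230 genes of the count files. The libraries came from primary mouse mesangial cells (MMC), the contractile cells between the capillaries of the glomerulus, cultured from WT mice and from mutants of the lncMGC-KO5 line, which carry a small CRISPR-Cas9 deletion near the start site of lncMGC on a C57BL/6J background. Both genotypes were kept in RPMI medium with fetal bovine serum and sampled after serum depletion (SD) or after TGF-β at 10 ng/ml for 24 h, which gave 4 groups of 3 libraries, WT-SD and KO-SD without TGF-β and WT-TGF and KO-TGF with it. The KO cells came from 1 mutant line, the glomeruli were pooled, and the 3 libraries of a group are described as independent samples, with no word on whether that means cultures or mice. The p-values measure the spread between these libraries, and genotype and cell preparation cannot be told apart.

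An imprinted gene is expressed mainly from the allele of 1 parent. The active allele is set by DNA methylation that is laid down in the germ line and kept through cell division by a maintenance machinery. Many imprinted genes act on growth of the fetus and placenta and are turned down after birth, and the IGF system (the ligand IGF2, its clearance receptor IGF2R and the adaptor GRB10) is the best known of their pathways. Poly(A) RNA counts add up both alleles, so the values below are total levels and say nothing about which allele was read.

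Each library held between 19898050 and 22827706 counts on genes. lncMGC has no row of its own in the counts. Rian, which shares exons with lncMGC, had a mean of 42.3 CPM in WT-SD, against 69.9 CPM in KO-SD libraries, and Mirg, which also shares exons with it, had 2.33 and 3.67 CPM. Both means were thus higher, not lower, in the libraries labelled KO. The difference of Rian passed the test without (log2 fold change 0.72, adjusted p = 2.58e-14) and with TGF-β (0.38, adjusted p = 5.3e-09). With TGF-β the Mirg means were 3.59 CPM in WT and 4.27 CPM in KO libraries, which overlapped. The study, by RT-qPCR, instead reported Rian and Mirg as lower in KO5 MMC than in WT MMC. With no row for lncMGC the genotype labels could not be checked, and groups are named here as they are labelled. CPM are counts per 1000000 counts of a library after scaling by TMM (trimmed mean of M values). Of 10 mesangial and pericyte markers, 7 could be tested and 6 of these were higher and 1 lower in KO-SD than WT-SD, and Ren1 was at 0 in every library. The 5 macrophage markers summed to between 23.6 and 25.5 CPM in WT-SD, against 2.06 to 2.22 CPM in KO-SD libraries. Adgre1, the F4/80 antigen, had 7.67 CPM ± 0.0660 in the WT-SD libraries (SD, n = 3), 3.96 CPM ± 1.37 in the WT-TGF libraries and no count in any of the 6 libraries labelled KO. Lyz2, the macrophage lysozyme, had 12.02 CPM in WT-SD, against 0.374 CPM in KO-SD libraries, and Ptprc, the pan-leukocyte antigen CD45, had 0.716 CPM in WT-TGF, against 0.0175 CPM in KO-TGF libraries. The 5 podocyte markers summed to between 439 and 446 CPM in WT-SD, against 214 to 222 CPM in KO-SD libraries, with the defining gene Nphs1 at or near 0. The 6 tubule markers summed to 71.9 to 78.3 CPM in WT-SD, against 18.8 to 21.9 CPM in KO-SD libraries. Only 3 of them could be tested, of which 2 were lower and 1 was higher in KO-SD, and 3 had at most 3 counts in any library. The 5 endothelial markers summed to at most 1.01 CPM in any library. The 5 proliferation markers summed to between 95.8 and 113 CPM in WT-SD, against 366 to 369.8 CPM in KO-SD libraries, and to between 37.3 and 41.0 CPM in WT-TGF, against 62.5 to 65.3 CPM in KO-TGF libraries. All 5 proliferation markers were higher in KO-SD than in WT-SD and lower with TGF-β in both genotypes. In bulk RNA, fewer cells of a type and less RNA per cell cannot be told apart, and the part of these markers in the differences below was not tested.

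The members differed widely in level. On the RPKM scale (CPM per kilobase of annotated exon, a rough guide to levels across genes), Grb10, Peg3 and Igf2r were the highest in WT-SD libraries, with mean levels of 39.8, 38.3 and 19.1 RPKM, and Ndn and Peg10 followed with 14.6 and 11.4 RPKM. Sgce had 7.25, Plagl1 2.83, Zim1 1.84 and Igf2 1.19 RPKM. Mest, a hydrolase gene of the mesoderm, was the lowest with 0.548 RPKM and never reached the limit of 1 RPKM that a gene had to pass in at least 1 library. The gap between Grb10 and Peg3 in WT-SD was over 1 RPKM, with SDs of 0.464 and 0.288 RPKM, but their order depends on the exon lengths used. By CPM, Peg3 was the higher in WT-SD, with a mean of 511 CPM against 362 CPM for Grb10. In KO-SD libraries the order by RPKM changed, with Peg10 first at 73.0 ± 1.65 RPKM (SD, n = 3), Peg3 second at 66.4 ± 1.34 RPKM and Grb10 next at 52.4 ± 1.16 RPKM. Peg10 was above 66.2% of the tested genes in WT-SD and above 96.7% of them in KO-SD libraries.

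**Figure D1:**
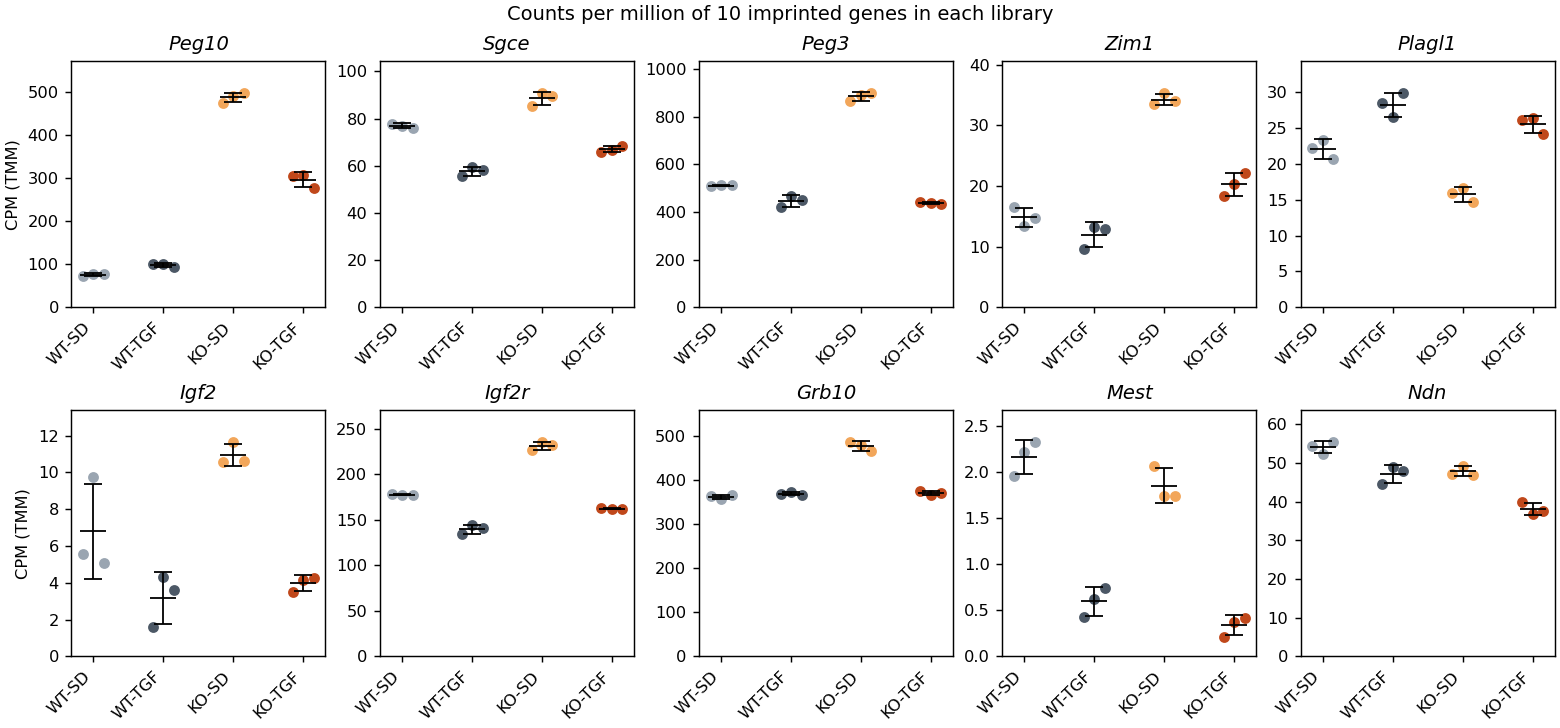
CPM of the 10 imprinted genes in each library (points), with the mean and SD of 3 libraries per group (black bars), by genotype label and treatment; each panel has its own axis from 0. The KO-SD libraries are the highest for Peg10, Sgce, Peg3, Zim1, Igf2, Igf2r and Grb10, and the lowest for Plagl1. How often this holds over all genes was not counted.

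The first question was how the imprinted genes differed between libraries labelled KO and WT before treatment. Of the 9 members that could be tested, 7 were higher (Peg10, Zim1, Peg3, Igf2, Grb10, Igf2r and Sgce) and 2 were lower (Plagl1 and Ndn) in KO-SD than in WT-SD libraries at an FDR under 5%, with edgeR's quasi-likelihood test and Benjamini-Hochberg adjustment over 11530 genes. Over all of these genes, 30.9% were higher and 25.2% were lower in the same comparison. The 9 members had a median log2 fold change of 0.40, and all tested genes had 0.02. Only Peg10 and Zim1 of the tested members differed by a fold change over 2. With scaling by library size alone the members had 7 higher and 2 lower calls, while the calls over all genes went from 3566 higher and 2908 lower to 2445 higher and 4193 lower. The 3 members known to be expressed from the maternal allele (Zim1, Igf2r and Grb10) were all higher in KO-SD, and of the 6 tested members expressed from the paternal allele 4 were higher and 2 were lower.

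After TGF-β, 4 of the 9 members were higher (Peg10, Zim1, Igf2r and Sgce) and 2 were lower (Ndn and Plagl1) in KO-TGF than in WT-TGF libraries, against 27.3% and 27.8% of all genes. The members had a median log2 fold change of 0.21, and all tested genes had -0.00. The difference between genotypes was smaller in absolute size after TGF-β than before it for 7 of the 9 members, Ndn and Sgce being the others. The share of all tested genes with a smaller difference was not counted, so this is no trait of the members alone. With scaling by library size alone, which moved the median of all genes in this comparison to -0.13, the members had 4 higher and 4 lower calls and all genes 1643 higher and 5408 lower calls, against 3142 and 3201 with TMM.

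**Figure D2:**
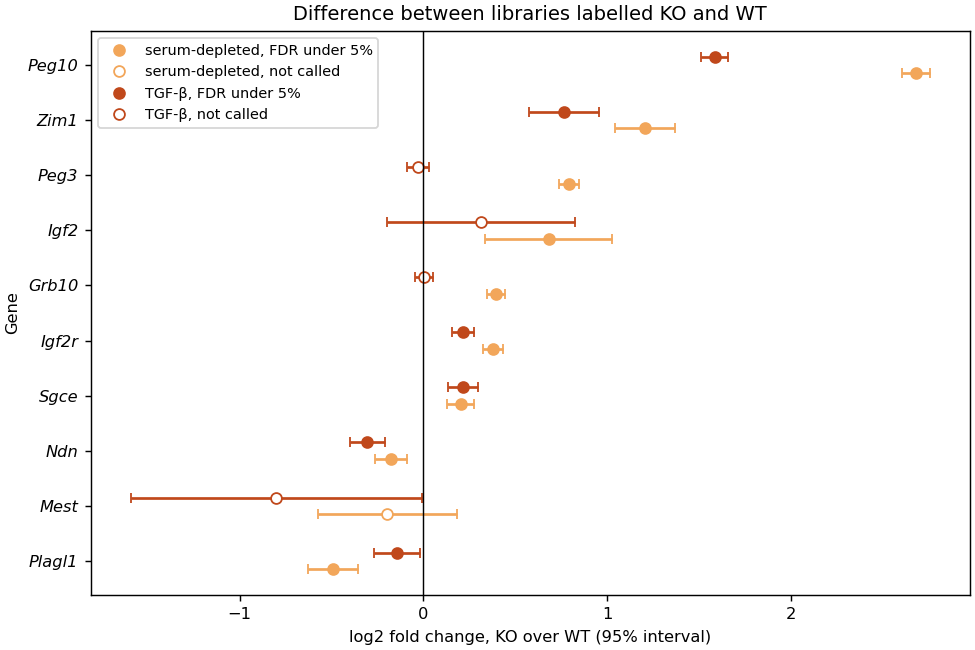
Log2 fold change of each imprinted gene in libraries labelled KO over those labelled WT, serum-depleted or with TGF-β, with 95% intervals from the fit; filled points passed an FDR under 5%. Peg10 lies farthest to the right at 2.68 and 1.59, and Peg3 and Grb10 move from 0.79 and 0.40 without TGF-β to -0.03 and 0.00 with it; Mest comes from a wider fit that kept every counted gene.

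Peg10 and Sgce form the pair with the largest contrast. Peg10, a gag-pol gene derived from a retrotransposon and needed for placenta formation, lies at chr6:4747306-4760517 on the plus strand (GRCm38). Sgce, which encodes ε-sarcoglycan of the dystrophin-associated complex, lies at chr6:4674350-4747204 on the minus strand, so that 101 bases separate the starts of these paternally expressed genes. Peg10 had 73.2, 77.9 and 76.6 CPM in the WT-SD libraries and 474, 489 and 496 CPM in the KO-SD libraries. It had 100.9, 101.1 and 93.8 CPM in WT-TGF, against 305, 306 and 277 CPM in KO-TGF libraries. Every library labelled KO was thus above every library labelled WT, and the KO libraries fell with TGF-β where the WT libraries rose. The log2 fold change between KO-SD and WT-SD was 2.68 ± 0.0364 (SE), which was 6.40-fold (adjusted p = 1.82e-31), and only 24 of the 11530 genes had a larger one. After TGF-β the difference was 1.59 ± 0.0360 (adjusted p = 8.5e-26).

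Sgce did not share the size of this change. Its values were 77.9, 77.1 and 75.9 CPM in WT-SD, against 85.4, 90.8 and 89.7 CPM in KO-SD libraries. They were 55.6, 59.3 and 58.3 CPM in WT-TGF, against 65.8, 66.8 and 68.4 CPM in KO-TGF libraries. The groups did not overlap in either comparison of genotypes, but the log2 fold changes were small, 0.20 (adjusted p = 1.78e-05) without and 0.21 (adjusted p = 2.81e-05) with TGF-β. The ratio of Peg10 to Sgce on the RPKM scale was 1.57 ± 0.0643 (SD, n = 3) in WT-SD and 2.72 ± 0.165 in WT-TGF libraries, and 8.74 ± 0.152 in KO-SD and 7.04 ± 0.512 in KO-TGF libraries. The lowest ratio in a library labelled KO was 6.45, and the highest in a library labelled WT was 2.89.

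Peg3 and Zim1 are neighbours on chromosome 7. Peg3, a paternally expressed zinc finger protein that represses transcription, lies at chr7:6703892-6730462, and Zim1, a maternally expressed zinc finger gene, at chr7:6674444-6696540, both on the minus strand and 7351 bases apart. The bases in front of their starts (RefSeq windows of GRCm38.p6, 5′ to 3′ on the minus strand) are printed because both genes were higher in KO-SD. They end at the RefSeq gene start and stop before the RefSeq start of Usp29 and before any GENCODE exon, and capitals mark matches to CAGAC or its reverse complement, the short element bound by SMAD proteins downstream of TGF-β.
Peg3, chr7:6730463-6730558: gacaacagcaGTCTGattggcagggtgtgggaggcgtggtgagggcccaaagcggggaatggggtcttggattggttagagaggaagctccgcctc
Zim1, chr7:6696541-6696682: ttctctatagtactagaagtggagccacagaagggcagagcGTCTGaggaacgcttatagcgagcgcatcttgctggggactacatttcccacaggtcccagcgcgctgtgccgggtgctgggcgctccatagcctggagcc

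Peg3 had 507, 511 and 514 CPM in WT-SD, against 864, 890.5 and 898 CPM in KO-SD libraries, a log2 difference of 0.79 ± 0.0276 (SE) or 1.73-fold (adjusted p = 5.19e-21). After TGF-β it had 420.4, 467 and 451 CPM in WT and 442, 436 and 434 CPM in KO libraries. These last groups overlapped, the difference was -0.03 with a 95% interval from -0.09 to 0.03, and the adjusted p was 0.39. Without WT-TGF library 1, the lowest of the WT libraries for Peg3, it was -0.07 with an adjusted p of 0.0212, without WT-TGF library 2 it was 0.00, and with scaling by library size alone it was -0.15 (adjusted p = 3.649e-05).

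Zim1 was higher in KO libraries at both treatments. It had 16.5, 13.4 and 14.7 CPM in WT-SD, against 33.4, 35.3 and 33.9 CPM in KO-SD libraries, a difference of 1.21 ± 0.0790 (SE) or 2.31-fold (adjusted p = 3.38e-14). With TGF-β it had 9.55, 13.3 and 12.9 CPM in WT and 18.3, 20.3 and 22.2 CPM in KO libraries, a difference of 0.76 or 1.70-fold (adjusted p = 2.86e-08). The ratio of Peg3 to Zim1 on the RPKM scale was 21.0 ± 2.28 (SD, n = 3) in WT-SD, 23.1 ± 3.16 in WT-TGF, 15.7 ± 0.369 in KO-SD and 13.2 ± 1.41 in KO-TGF libraries, with no overlap between libraries labelled WT and KO. Usp29, a paternally expressed deubiquitinase gene that starts in front of Peg3 and runs the other way, was under the RPKM limit. It had means of 5.24 CPM in WT-SD, 8.28 CPM in KO-SD, 5.96 CPM in WT-TGF and, in KO-TGF libraries, 5.90 CPM. In a wider fit that kept every counted gene, the difference of Usp29 between KO-SD and WT-SD was 0.69 (adjusted p = 1.38e-09), and after TGF-β it was -0.00 with a 95% interval from -0.23 to 0.23.

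The members of the IGF system came next. Igf2, the fetal growth ligand, lies at chr7:142650768-142666816 on the minus strand and shares exon sequence with the antisense gene Igf2os, which the strand-specific counting kept apart. Igf2 was rare, with 34 to 241 counts per library. It had 5.55, 9.76 and 5.05 CPM in WT-SD, against 10.6, 11.6 and 10.6 CPM in KO-SD libraries. The groups did not overlap, but WT-SD library 2 was close to the KO libraries, and the difference of 0.68 ± 0.168 (SE) or 1.60-fold (adjusted p = 0.000935) had an adjusted p of 0.09473 with DESeq2. After TGF-β, Igf2 had 1.61, 4.32 and 3.61 CPM in WT and 3.48, 4.17 and 4.26 CPM in KO libraries, which overlapped. The difference was 0.31 with a 95% interval from -0.20 to 0.83 (adjusted p = 0.299), and -0.01 without WT-TGF library 1.

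Igf2r, the receptor that takes IGF2 into the lysosome, lies at chr17:12682406-12769706 on the minus strand and is expressed from the maternal allele in mice. It had 178, 177 and 178 CPM in WT-SD, against 227, 235 and 232 CPM in KO-SD libraries, a difference of 0.38 ± 0.0269 (SE) or 1.30-fold (adjusted p = 2.08e-13). With TGF-β it had 134, 144 and 141 CPM in WT and 163, 162 and 162 CPM in KO libraries, a difference of 0.22 or 1.16-fold (adjusted p = 1.3e-07). Groups labelled KO and WT did not overlap at either treatment, and Igf2 and Igf2r were both highest in KO-SD libraries.

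Grb10, an adaptor that inhibits the insulin and IGF1 receptors, lies at chr11:11930499-12037428 on the minus strand. It had 364, 357 and 365 CPM in WT-SD, against 485, 479 and 464 CPM in KO-SD libraries, a difference of 0.40 ± 0.0239 (SE) or 1.32-fold (adjusted p = 4.43e-15). With TGF-β the values were 367, 372 and 366 CPM in WT and 374, 364 and 369 CPM in KO libraries. Here the libraries overlapped and the difference was 0.00 with a 95% interval from -0.05 to 0.05 (adjusted p = 0.915). With scaling by library size alone, in which the median of all genes was -0.13, it was -0.12 (adjusted p = 9.677e-05).

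Plagl1, a zinc finger factor that holds back growth and binds other imprinted genes, lies at chr10:13090832-13131694 on the plus strand and went the other way. It had 22.2, 23.4 and 20.7 CPM in WT-SD, against 16.0, 16.7 and 14.6 CPM in KO-SD libraries, a difference of -0.49 ± 0.0671 (SE), or 1.40-fold lower in KO libraries (adjusted p = 2.46e-07). With TGF-β it had 28.5, 26.5 and 29.9 CPM in WT and 26.1, 26.4 and 24.2 CPM in KO libraries. The difference of -0.14 had an adjusted p of 0.0443, and the highest KO library and the lowest WT library were nearly equal. Without WT-TGF library 1 or 3 the adjusted p was 0.08455 or 0.2012, without KO-TGF library 1, 2 or 3 it was 0.09323, 0.07495 or 0.2818, and with DESeq2 it was 0.1508.

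Ndn, a MAGE family gene of the Prader-Willi region that restrains cell proliferation, lies at chr7:62348277-62349928 on the plus strand. It had 54.5, 52.4 and 55.4 CPM in WT-SD, against 47.3, 49.4 and 47.0 CPM in KO-SD libraries, a difference of -0.18 ± 0.0423 (SE; adjusted p = 0.00074). With TGF-β the values were 44.7, 49.0 and 47.9 CPM in WT and 40.0, 37.0 and 37.7 CPM in KO libraries, a difference of -0.31 (adjusted p = 1.34e-06). Ndn was the tested member whose libraries labelled KO were lower by the most after TGF-β. Mest, at chr6:30733506-30748466 on the plus strand, overlaps exons of Copg2 on the other strand. It had 1.96, 2.21 and 2.32 CPM in WT-SD, against 2.07, 1.74 and 1.74 CPM in KO-SD libraries, which overlapped. In the wider fit, the difference was -0.20 with a 95% interval from -0.58 to 0.18 (adjusted p = 0.479).

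The next question was how the genes responded to TGF-β in each genotype. Of the 9 tested members, 2 were higher (Peg10 and Plagl1) and 6 lower (Sgce, Peg3, Zim1, Igf2, Igf2r and Ndn) with TGF-β in WT MMC, where 36.0% of all genes were higher and 36.4% lower. In MMC labelled KO, 1 was higher (Plagl1) and 8 were lower, where 34.9% of all genes were higher and 39.1% lower. The median member stood at -0.20 in WT and at -0.51 in KO MMC on the log2 scale, and the median of all genes at -0.00 and -0.03. The WT and KO responses come from separate libraries, and 6 of the 9 members were lower and 1 was higher in both, where 31.9% and 30.1% of all genes were. Peg10, higher in WT and lower in KO MMC, shared this pattern with 0.885% of all genes. With scaling by library size alone the medians of all genes moved to -0.16 and -0.23. The members then had 2 higher and 7 lower calls in WT and 1 higher and 8 lower in KO MMC, and all genes had 2642 higher and 6056 lower calls in WT and 2298 higher and 6716 lower in KO MMC, where TMM gave 4152 and 4198 in WT and 4028 and 4512 in KO MMC.

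The largest decreases with TGF-β were those of Mest and Igf2. Mest had 0.425, 0.624 and 0.741 CPM in WT-TGF, against 0.214, 0.374 and 0.420 CPM in KO-TGF libraries, below every SD library of the same genotype. With 4 to 15 counts per TGF-β library, its log2 fold change in the wider fit was -1.82 (adjusted p = 2.1e-12) in WT and -2.42 (adjusted p = 2.85e-14) in KO MMC. This fit gave nearly all genes 1 common spread, and a filter on CPM gave larger adjusted p-values for Mest, 2.748e-08 and 6.362e-09. Between genotypes, Mest differed by -0.80 after TGF-β with a 95% interval from -1.59 to -0.01 (adjusted p = 0.108), and by -0.93 (adjusted p = 0.04744) with scaling by library size alone. Igf2 fell by 1.09 on the log2 scale in WT (adjusted p = 4.34e-05) and by 1.46 in KO MMC (adjusted p = 8.12e-08).

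The response differed between genotypes for 6 of the 9 tested members by the interaction term of the fit, which subtracts the WT response from the KO response. It was lower in KO MMC for 5 (Peg10, Peg3, Zim1, Grb10 and Igf2r) and higher for Plagl1, where 16.6% and 8.67% of all genes were lower and higher. Library size scaling alone gave 686 genes with a higher and 2648 with a lower response in KO MMC, where TMM gave 1000 and 1916, and the members then had 1 higher and 6 lower. The median over the members was -0.37, and over all genes -0.03. Peg10 had the largest term, -1.09 ± 0.0511 (SE; adjusted p = 1.05e-16), made of a log2 fold change of 0.38 in WT and -0.72 in KO MMC. It was the tested member with calls in opposite directions in the 2 genotypes. Peg3 had a term of -0.82 ± 0.0394 (adjusted p = 1.96e-16), from -0.19 in WT and -1.02 in KO MMC, so that it was at about the same level in both genotypes after TGF-β.

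Grb10 changed by 0.03 with a 95% interval from -0.02 to 0.08 in WT (adjusted p = 0.339) and fell by 0.37 in KO MMC, with a term of -0.39 ± 0.0340 (adjusted p = 1.48e-10). With scaling by library size alone its WT change was -0.13 (adjusted p = 1.089e-05), against a median of -0.16 for all genes. The term of Igf2r was small, -0.16 (adjusted p = 0.00191). For Zim1 it was -0.44 ± 0.124 (adjusted p = 0.0076), and the adjusted p rose to 0.05248 without WT-TGF library 2 and to 0.05791 without KO-TGF library 1. The WT decrease of Zim1, -0.31 (adjusted p = 0.00436), was -0.17 with an adjusted p of 0.08702 without WT-TGF library 1. Plagl1 rose by 0.35 in WT and by 0.70 in KO MMC, with a term of 0.35 ± 0.0908 (adjusted p = 0.0045).

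Sgce fell by 0.41 in WT and by 0.40 in KO MMC, with a term of 0.01 and a 95% interval from -0.10 to 0.12 (adjusted p = 0.915). For Ndn the term was -0.13 (adjusted p = 0.136), and -0.18 (adjusted p = 0.0361) with scaling by library size alone. For Igf2 it was -0.37 with a 95% interval from -0.99 to 0.25 (adjusted p = 0.425), and without WT-SD library 2 it was -0.73 (adjusted p = 0.03967). All 5 proliferation markers had a lower response in KO MMC as well, and their part in the terms of the members was not tested.

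**Figure D3:**
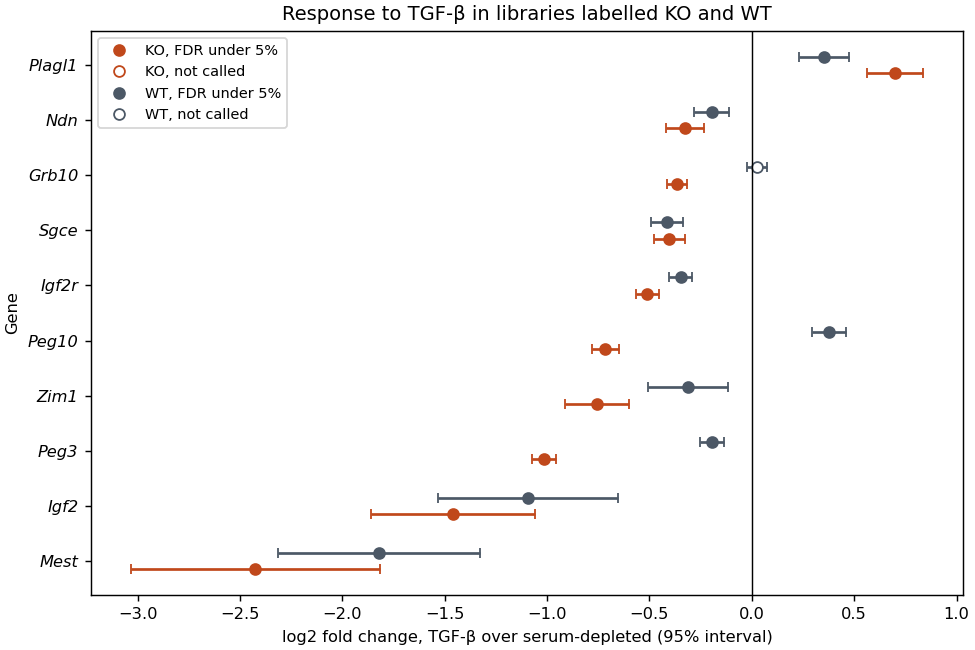
Log2 fold change of each imprinted gene with TGF-β over serum depletion, in libraries labelled WT and KO, with 95% intervals; filled points passed an FDR under 5%. The WT and KO points of Peg10 lie on opposite sides of 0, at 0.38 and -0.72, those of Sgce nearly coincide at -0.41 and -0.40, and Mest and Igf2 lie farthest to the left.

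The genes next to the members were then compared, the nearest tested genes on each side within 1 Mb in the annotation. Of 29 such neighbours that are not members, 7 were higher and 9 lower in KO-SD than WT-SD libraries. Over all tested genes, 30.9% were higher and 25.2% lower. The median was -0.10 for the neighbours and 0.02 for all genes. Of the neighbours, the microRNA genes Mir29a and Mir344-2 had at most 2 counts in any library. H19, Cd81, Copg2, Ppp1r9a, Pon3, Mkrn3 and Peg12 are also on the list of other imprinted genes below. Around Peg10 and Sgce, Casd1 was at 0.12 (adjusted p = 0.034), and the listed imprinted genes Ppp1r9a and Pon3 were at -0.04 (adjusted p = 0.49) and -0.40 (adjusted p = 1.7e-08). Col1a2, a fibrillar collagen gene on the other side of Sgce, was at -0.74 (adjusted p = 5.79e-17), so that none of these genes rose with Peg10 by a like amount. Next to Peg3 and Zim1, the zinc finger genes Zfp28, Zfp954 and Zfp772 were at -0.17, 0.07 and -0.17, with none past the threshold, and Zfp583 was at -0.49 (adjusted p = 0.00684). Fignl1, a DNA repair gene beside Grb10, had the largest increase of the neighbours, 1.42 (adjusted p = 3.1e-13), and an interaction term of -1.41. Its mean was 4.02 CPM in WT-SD, 10.7 CPM in KO-SD, 2.35 CPM in WT-TGF and, in KO-TGF libraries, 2.36 CPM. Peg12, an imprinted gene near Ndn, was higher in KO-SD by 0.46 (adjusted p = 0.0007) where Ndn was lower.

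H19, the maternally expressed non-coding RNA that shares enhancers with Igf2 and lies 72621 bases from it, had a mean of 74.6 CPM in WT-SD, with libraries from 60.0 to 99.3 CPM, and of 89.7 CPM in KO-SD, with libraries from 77.0 to 100.3 CPM. These groups overlapped, and the difference of 0.26 had a 95% interval from -0.01 to 0.54 (adjusted p = 0.1). With TGF-β, H19 fell by 1.72 on the log2 scale in WT (adjusted p = 1.23e-10) and by 3.11 in KO MMC (adjusted p = 4.1e-15), to means of 22.7 and 10.4 CPM, and the interaction term was -1.39 (adjusted p = 0.000263). Igf2 and H19 were thus both lower with TGF-β in both genotypes.

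**Figure D4:**
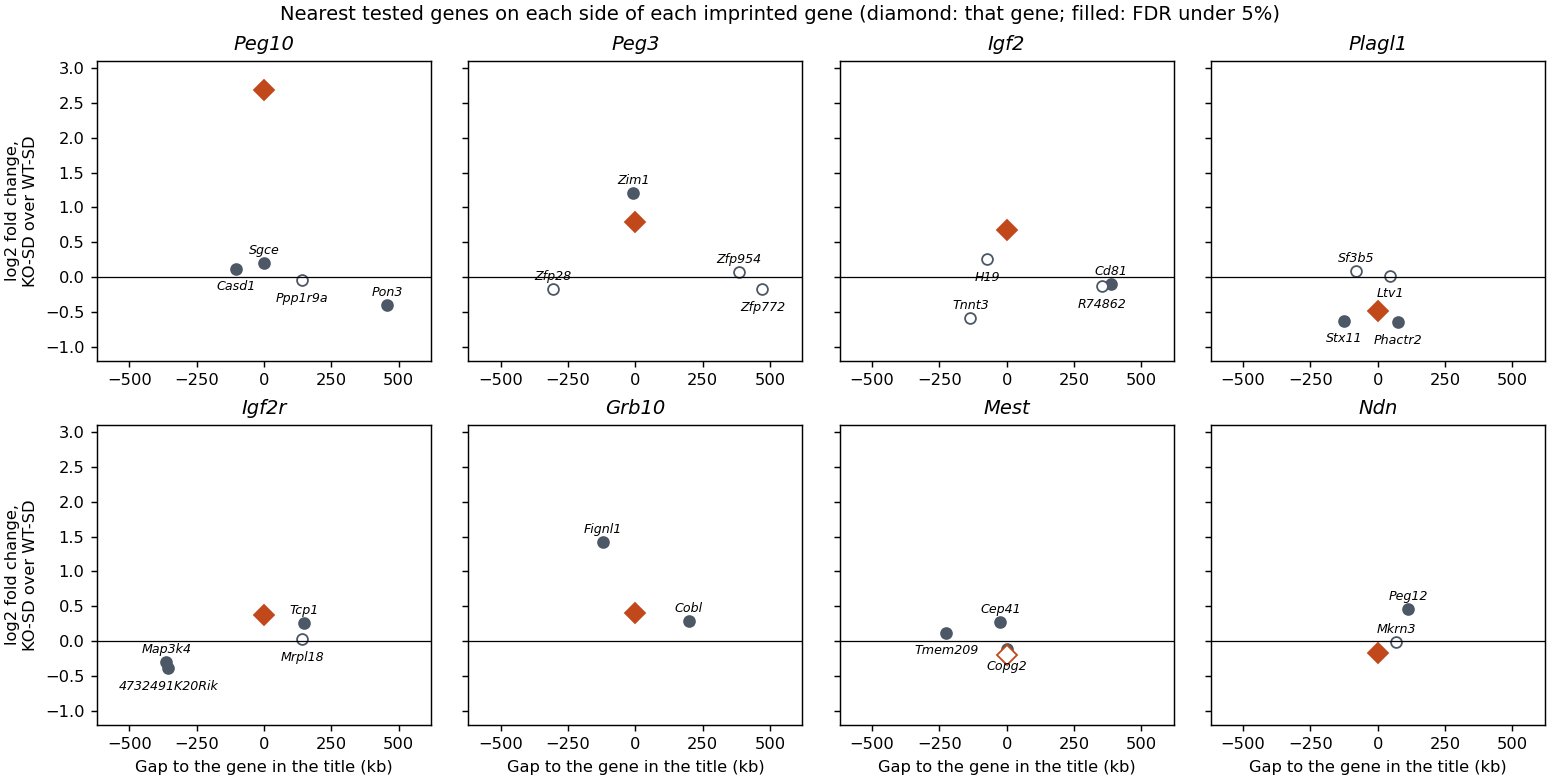
Log2 fold change between KO-SD and WT-SD libraries of each imprinted gene (diamond) and of its nearest tested neighbours (circles; 2 microRNA genes with few counts are left out), against the gap between genes in kb; filled symbols passed an FDR under 5%. The neighbours of Peg10 lie between -0.40 and 0.20 while Peg10 is at 2.68, Zim1 lies beside Peg3 at 1.21, and Fignl1 lies above Grb10 at 1.42.

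The genes whose log2 CPM followed a member most closely over the 12 libraries were found by Pearson's r, which here describes a pattern over 4 groups that all genes share. For Peg10 this was Olfml2b, a secreted olfactomedin-like protein (r = 0.997), with means of 36.9 CPM in WT-SD, 42.9 CPM in WT-TGF, 142 CPM in KO-SD and, in KO-TGF libraries, 93.9 CPM. For Peg3 it was Spp1, which encodes osteopontin (r = 0.990), for Igf2r the condensin gene Ncapg (r = 0.998), and for Grb10 the BMP regulator Bmper (r = 0.991). Sgce was closest to Lamp1 (r = 0.992), Zim1 to C1qtnf6 (r = 0.978), Plagl1 to Pdk4 (r = 0.978), Igf2 to Naaa (r = 0.939) and Ndn to Jmjd8 (r = 0.990).

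Other imprinted genes outside the Dlk1-Dio3 domain were counted as a list. Of 57 listed, 55 had a row and 28 could be tested, and 5 of these were higher and 13 lower in KO-SD than WT-SD, with a median of -0.07 beside 0.02 for all genes tested. After TGF-β, 7 were higher and 9 lower between genotypes, with a median of -0.05. Over all tested genes, 30.9% were higher and 25.2% lower before TGF-β, and 27.3% and 27.8% after it. The higher count of the list before treatment was 11 with all genes and 3 with scaling by library size alone, and after TGF-β this scaling gave 4 higher and 16 lower. TGF-β raised 15 and lowered 11 in WT and raised 12 and lowered 11 in KO MMC, with medians of 0.10 and 0.05, and 5 had a higher and 2 a lower response in KO MMC. Of all tested genes, 36.0% were raised and 36.4% lowered in WT, and 34.9% and 39.1% in KO MMC. The response in KO MMC was higher for 8.67% and lower for 16.6% of them. For the list, library size scaling alone gave 6 higher and 12 lower with TGF-β in WT and 7 higher and 17 lower in KO MMC, so that the balance turned in both, and 1 had a higher and 2 a lower response. Zdbf2, a paternally expressed gene of chromosome 1, had 26 to 37 counts in WT-SD, 17 to 20 in WT-TGF and at most 2 in any library labelled KO. Dcn, the small proteoglycan decorin, was named after its values were seen, since it had the largest difference of the 28, 2.59 before (adjusted p = 3.46e-25) and 2.39 after TGF-β (adjusted p = 1.63e-19).

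The partners of the members in the IGF system were mixed. Of 18, 14 could be tested, and 6 were higher and 4 lower in KO-SD than WT-SD, with a median of 0.02, and 4 were higher and 5 lower after TGF-β, with a median of -0.02. TGF-β raised 4 and lowered 8 in WT and raised 3 and lowered 8 in KO MMC, with medians of -0.14 and -0.25, and 1 had a higher and 4 a lower response in KO MMC. Over all tested genes, 30.9% were higher and 25.2% lower in KO before TGF-β, and 27.3% and 27.8% after it. Their medians were 0.02 and -0.00. TGF-β raised 36.0% and lowered 36.4% of all genes in WT, and raised 34.9% and lowered 39.1% in KO MMC. The response in KO MMC was higher for 8.67% and lower for 16.6% of them. Igf1, the second ligand of the system, had 1241 CPM in WT-SD, 1860 CPM in KO-SD, 1128 CPM in WT-TGF and, in KO-TGF libraries, 1110 CPM. Its difference was 0.58 ± 0.0426 (SE) before TGF-β (adjusted p = 4.34e-13) and -0.02 after it, with a 95% interval from -0.11 to 0.06 and an interaction term of -0.61 (adjusted p = 2.68e-09). Igf1r, the signaling receptor for both ligands, was lower in KO at both treatments, with log2 fold changes of -0.13 (adjusted p = 1.01e-05) and -0.16 (adjusted p = 4.37e-07).

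A list of 17 genes that act on imprints held Tet1, Tet2 and Tet3, which remove DNA methylation, besides genes that set or keep it. Of the 17, 15 could be tested, and 9 were higher and 2 lower in KO-SD than WT-SD, with a median of 0.14. After TGF-β, 5 were higher and 4 lower, with a median of 0.08. TGF-β raised 3 and lowered 8 in WT and raised 3 and lowered 10 in KO MMC, with medians of -0.10 and -0.17, and 2 had a higher and 5 a lower response in KO MMC. The shares of all tested genes were 30.9% higher and 25.2% lower in KO-SD than WT-SD, and 27.3% and 27.8% after TGF-β. Their medians were 0.02 and -0.00. With TGF-β, 36.0% of them rose and 36.4% fell in WT, and 34.9% and 39.1% in KO MMC. The response in KO MMC was higher for 8.67% and lower for 16.6%. Of the 17 listed genes, Uhrf1, Hells and Dnmt1 are named after their values were seen. Uhrf1, which brings the maintenance methyltransferase to replicating DNA, differed by 1.65 between KO-SD and WT-SD (adjusted p = 1.19e-16), the chromatin remodeler Hells by 1.24 (adjusted p = 2.84e-14) and the methyltransferase Dnmt1 itself by 0.73 (adjusted p = 9.77e-16). With TGF-β, Uhrf1 had means of 4.11 CPM in WT and 4.36 CPM in KO libraries. Hells had 5.22 and 6.15 CPM there, and Dnmt1 had 41.9 and 47.7 CPM. These genes are known to be expressed in dividing cells, the proliferation markers were also higher in KO-SD than in WT-SD, and the part of these in the differences was not tested.

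Promoter windows, 250 bases before to 50 after the RefSeq start, were at hand for 8 members in 14 windows. TGCCGC, the core of the ZFP57 site in methylated imprinting control regions, was in 11.6% of all 32851 windows and on either strand in windows of Zim1, Plagl1, Igf2, Grb10 and Mest. GGGGCCCC, bound by PLAGL1, was in 1.08% of windows and among the members only in that of Peg3. CAGAC was in 49.6% of all windows, so that its matches in Peg3, Zim1, Igf2, Igf2r and Grb10 are of a common kind. GCCATNTT, bound by YY1, was in 6.05% of windows and in none of the members. The main Grb10 window had a GC share of 80% with 45 CpG, and that of Igf2r 70.7% with 34 CpG, while the median over all windows was 52.7% with 7 CpG. Each motif was searched on both strands, no motif holds another, and a match describes the letters of a window and not binding.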

How the data were processed

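RNA from MMC was prepared with a poly(A) kit that keeps strand, sequenced from 1 end, and the authors used TopHat (mm10) for alignment and HTSeq in its reverse strand mode, with poor alignments removed, for counting over RefSeq genes. The deposited values are raw counts, 1 whole number per gene and library, with neither normalization nor a filter. Reads outside genes, with several alignments or on overlapping genes (10.3% to 15.4%, 11.2% to 11.7% and 0.225% to 0.274% of counts in a library) were left out.

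Counts were scaled by TMM (factors 0.898 to 1.10) and fitted with edgeR 4.0.16 in R 4.3.3 (glmQLFit, glmQLFTest), 1 mean per group over all 12 libraries. Genes with RPKM over 1 in at least 1 library were kept, 11530 of 18565 with a count, with exon lengths from GENCODE vM21. A call is an FDR under 5% over these genes. Genes under the limit, Mest among them, were taken from a wider fit that kept every counted gene. The 4 comparisons of groups share libraries and are not independent of each other. Gene coordinates and promoter windows are those of RefSeq on GRCm38.p6, the assembly of mm10. The scripts were tested on simulated data. Alternatives were library size scaling, DESeq2 1.42.0 without independent filtering, no filter, CPM over 1 in at least 3 libraries, a fit restricted to the 2 groups of a comparison, a replicate block, and each library left out.

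The members and gene lists were chosen with earlier results of these data known. All 10 members are named. Of the lists, the 4 genes with the largest called difference between genotypes (Adgre1, Zdbf2, Lyz2 and Ptprc) and 4 partners of members (H19, Usp29, Igf1 and Igf1r) are named, besides some of the up to 2 nearest tested genes on each side of a member and the gene most like each tested member. A list of 7 known TGF-β targets served as a check: 6 had a row, and TGF-β raised all 6 in WT MMC, and raised 5 and lowered 1 in KO MMC.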

Additional observations from a re-analysis of the deposited data

Results flagged for a closer look

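The response to TGF-β differed between libraries labelled KO and WT for 6 of the members by the interaction term of the edgeR fit, the KO response minus the WT response on the log2 scale. It was -1.09 for Peg10, -0.82 for Peg3, -0.44 for Zim1, -0.39 for Grb10, -0.16 for Igf2r and 0.35 for Plagl1. Over all tested genes, the response in KO was lower for 16.6% and higher for 8.67%. The edgeR call of Zim1 was lost without WT-TGF library 2 (adjusted p = 0.05248) or without KO-TGF library 1 (adjusted p = 0.05791). All groups held 3 libraries, too few to look for single libraries that stand apart within a group.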

How the results depend on the processing

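Of 884 values of single members under the alternatives, 855 kept their direction and their side of the threshold. With the same sign, 12 lost and 5 gained a call, and 12 changed sign. The sign changes were of values that had not passed the test: Sgce in the interaction (-0.0050 with no filter, -0.034 with library size scaling, -0.018 to 0.064 with a library left out), Peg3 between KO-TGF and WT-TGF (-0.074 to 0.0049 with a library left out), Igf2 there (-0.0069 to 0.62), and Grb10 there (-0.12 with library size scaling, -0.0034 with only the groups compared, -0.0027 to 0.031 with a library left out) and in the WT response (-0.13 with library size scaling). With library size scaling both Grb10 values passed the threshold after the change of sign (adjusted p = 9.677e-05 between KO-TGF and WT-TGF, and 1.089e-05 in the WT response). Members lower in KO-TGF than WT-TGF numbered 1 with no filter, DESeq2 or the CPM filter and 4 with library size scaling, and 1 to 2 when a library was left out. Other imprinted genes with library size scaling numbered 6 higher with TGF-β in WT, 7 higher and 17 lower in KO, 3 higher in KO-SD, 4 higher and 16 lower in KO-TGF, and 1 higher in the interaction. Those higher in KO-SD numbered 11 with no filter, 8 with the CPM filter, 3 with only the groups compared and 3 to 6 with a library left out, and those higher in the interaction 3 with no filter and 3 to 8 with a library left out. The number of genes tested changes with the filter, and otherwise the cause was not tested. Same-numbered libraries of different groups deviated together weakly at most: over 18 pairs r lay between -0.0262 and 0.0765. A library was closest to its own number in 19 of 36 cases, with 3 libraries to choose from in each. The numbers were not taken as pairs. With the replicate number as a block, no call of a member changed, and the members still had 7 higher and 2 lower calls between KO-SD and WT-SD. Low counts limit Mest and Igf2, whose intervals are the widest.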
